A study of Mus musculus with 6 samples.

Results

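Branched-chain amino acid breakdown was followed through 10 genes chosen by name, Bckdha, Bckdhb, Dbt, Ivd, Mccc1, Mccc2, Acadsb, Hibch, Aldh6a1 and Pccb, out of 22086 genes tested. They were chosen with earlier results of these data known. Each was read from the transcript cluster that the platform annotation gives to that symbol alone, and each of the 10 has 1 such cluster, so no choice between clusters was needed. Kidney RNA was compared between 3 female mice given metformin, a biguanide used against diabetes, by intraperitoneal injection of 150 mg per kg per day, and 3 female mice given saline injections. All 6 mice carried the Pkd1 miR transgene of a polycystic kidney disease model and were treated from postnatal day 35 to day 63, the age at which the kidneys were collected. The labels name biological replicates, and neither the promoter of the transgene nor a group without it is given in the sources used here. Values are log2 expression per array on the scale the authors deposited, which reaches 19.93, and a change is metformin minus saline on that scale.

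Leucine, isoleucine and valine share their first steps in mitochondria: a transaminase removes the amino group, and the branched-chain 2-oxoacid dehydrogenase complex then releases carbon dioxide and links the remaining chain to coenzyme A. After that the paths part. Leucine yields acetyl-CoA and acetoacetate through a biotin-dependent carboxylase, while valine and part of isoleucine yield propionyl-CoA, which enters the citric acid cycle after a second biotin-dependent carboxylation and a rearrangement that needs cobalamin. The kidney takes part in this oxidation, and inherited loss of these enzymes in people causes maple syrup urine disease, isovaleric acidaemia and propionic acidaemia, among others.

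Upper quartiles were 7.34, 7.28 and 7.21 on metformin arrays 1 to 3, against 7.01, 7.12 and 7.01 on saline arrays 1 to 3. What lies behind that difference between the groups was not tested. Correlations between arrays were 0.984 to 0.996, and the array medians lay between 4.67 and 4.86 log2 units. Of the kidney markers looked at, most were far above those medians on every array: the lowest value was 18.15 for the proximal phosphate transporter Slc34a1, 18.68 for uromodulin Umod of the thick ascending limb 14.12 for the water channel Aqp2 of the collecting duct and 6.35 for nephrin Nphs1 of podocytes. The proximal transporter Slco1a1 lay under the array medians on every array.

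The RefSeq table of promoters (GRCm38.p6, 250 bases before to 50 after a start site) holds 11 windows for 9 of the 10 genes, and Dbt has none in it. Windows of 4 genes held at least 3 CCAAT boxes, the short element bound by the trimeric factor NF-Y, and these are shown because the repeats sit close to the start site. Each line below gives the 120 bases before the start site of that table, read on the gene's strand. For Ivd and Mccc1 that start site lies inside the gene span given further on. CCAAT boxes are in capitals, printed as CCAAT where the box lies on the gene's strand and as ATTGG where it lies on the other strand. The windows are chr12:84451025-84451144 (minus strand) for Aldh6a1, chr2:118861874-118861993 (plus strand) for Ivd, chr13:100015640-100015759 (minus strand) for Mccc2 and chr3:36000679-36000798 (minus strand) for Mccc1.
Aldh6a1: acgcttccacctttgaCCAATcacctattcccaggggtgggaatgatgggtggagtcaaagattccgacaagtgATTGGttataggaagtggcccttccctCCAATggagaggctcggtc
Ivd: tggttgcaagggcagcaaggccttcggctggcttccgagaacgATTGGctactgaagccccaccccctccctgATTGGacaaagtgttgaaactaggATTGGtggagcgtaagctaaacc
Mccc2: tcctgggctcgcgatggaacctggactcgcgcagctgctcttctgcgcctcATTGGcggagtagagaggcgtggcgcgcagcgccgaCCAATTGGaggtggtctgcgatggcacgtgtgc
Mccc1: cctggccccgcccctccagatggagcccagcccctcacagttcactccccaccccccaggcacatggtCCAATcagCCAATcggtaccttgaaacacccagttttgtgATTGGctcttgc

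In each of these stretches 3 boxes were found, and in that of Mccc2 a pair of them overlap in the run CCAATTGG, which reads as a box on both strands. Over the full windows, at least 3 matches were present in 4 of the 11 windows of the breakdown genes (36.4%) and in 3.37% of all 32851 windows of the table. That limit was set after the matches were seen. At least 1 match was present in 7 of the 11 windows (63.6%), from 5 genes, and in 37.4% of all windows. On both strands, the GC box GGGCGG was present in 4 of the 11 windows against 35.7% of all windows, and the CACCC box CCACCC in 4 against 31.5%. The TATA box TATAAA was found in 0 of the 11 windows against 13.6% of all. The ETS core, spelled CCGGAAG here, was found in 0 against 8.86%, and a nuclear receptor half-site, with the letters AAGGTCA, in 0 against 4.72%. A match is a description of the letters and not of binding.

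In the metformin kidneys 8 of the 10 breakdown genes fell by the limma test at an adjusted p under 0.05, and the other 2, Bckdha and Mccc1, had changes below 0 that did not pass. Among all genes tested 15.8% were called, 9.08% lower and 6.71% higher. Because the 10 were chosen with earlier results of these data known, their contrast with all genes is a description and not independent evidence. No breakdown gene was called higher by limma, and at an unadjusted p under 0.05 the count was also 0, whereas all 10 were lower at that unadjusted limit. The median change of the 10 was -0.85, against 0.02 for all genes, and the fold by which metformin kidneys were lower ran between 1.34 for Bckdha and 2.86 for Aldh6a1. In all 10 genes every metformin value lay under every saline value, a pattern that 19.4% of all genes showed (17.8% showed the opposite). The number of calls depended on which array was in the fit. Fits that dropped metformin replicate 1, 2 or 3 gave 3, 3 and 5 calls, beside 3.21%, 3.54% and 4.86% of all genes called lower. Fits that dropped saline replicate 1, 2 or 3 gave 0, 9 and 3 calls, beside 2.22%, 9.67% and 5.37% of all genes. In the fit with 0 calls by limma, 9 of the 10 were lower at an unadjusted p under 0.05. All 10 changes stayed below 0 in each of these 6 fits, with a median between -1.02 and -0.70. In bulk tissue, fewer cells of a type and less RNA per cell cannot be told apart.

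**Figure D1:**
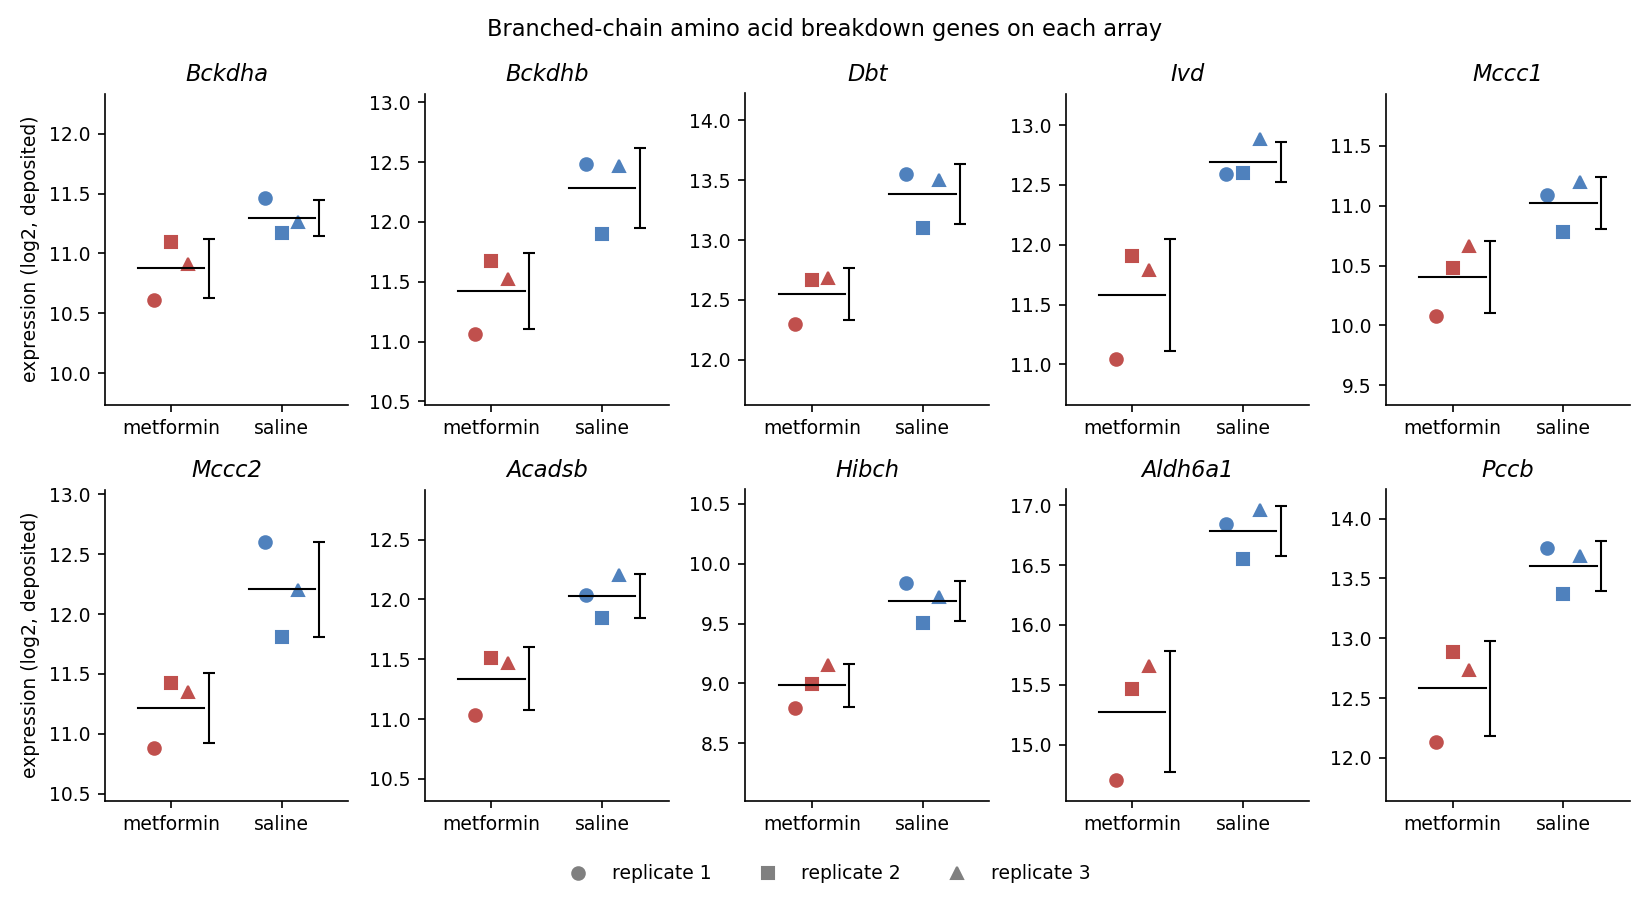
Deposited log2 expression of the 10 genes on each array, metformin (red) left of saline (blue), with replicate numbers as symbols, the group mean as a line and the SD (n = 3) as a bar. Each axis spans the same range of log2 units around its gene, no panel has overlapping groups, and metformin replicate 1 is the lowest point in all 10.

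The dehydrogenase complex commits the branched-chain 2-oxoacids to oxidation, and 3 of its genes are among the 10. Dbt, the lipoate-bearing transacylase core of the complex (RefSeq position chr3:116513070-116549981), had 12.30, 12.66 and 12.69 in metformin kidneys 1 to 3, against 13.55, 13.10 and 13.50 in saline kidneys 1 to 3. The groups were separated by 0.42 log2 units between the nearest arrays, and the change was -0.84 ± 0.16 (SE; limma adjusted p = 0.0183). Bckdhb, the beta chain of the decarboxylase (chr9:83925111-84124240), had 11.06, 11.67 and 11.53 in metformin kidneys, against 12.48, 11.90 and 12.47 in saline kidneys. Its lowest saline value, that of replicate 2, lay 0.22 above the highest metformin value, and the change was -0.86 ± 0.21 (limma adjusted p = 0.0356, and 0.0529 in the fit that blocked on replicate). Bckdha, the alpha chain that carries the phosphorylation sites through which the complex is switched off (chr7:25629852-25658782), had 10.61, 11.09 and 10.91 in metformin kidneys, against 11.46, 11.17 and 11.26 in saline kidneys. Metformin replicate 2 and saline replicate 2 were only 0.07 apart, and the change of -0.42 ± 0.15 did not pass (limma adjusted p = 0.0904). The call of Dbt ended when metformin replicate 1 (adjusted p = 0.0544) or 2 (0.0506) or saline replicate 1 (0.0751) was dropped. That of Bckdhb was kept without saline replicate 2 alone (0.0148), and in the other 5 fits the adjusted p ran between 0.0602 and 0.125.

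On the leucine arm, Ivd and Mccc2 fell and Mccc1 did not pass. Ivd, isovaleryl-CoA dehydrogenase, whose promoter is shown above (gene at chr2:118861959-118882909), had 11.04, 11.91 and 11.79 in metformin kidneys, against 12.59, 12.60 and 12.89 in saline kidneys. The saline values were close together and metformin replicate 1 lay well under the other two, with a change of -1.11 ± 0.23 (limma adjusted p = 0.0209). Methylcrotonoyl-CoA carboxylase has a biotin-carrying alpha chain, Mccc1, and a carboxyltransferase beta chain, Mccc2. Mccc2 (chr13:99948532-100015639) had 10.88, 11.43 and 11.35 in metformin kidneys, against 12.60, 11.81 and 12.21 in saline kidneys, a change of -0.99 ± 0.22 (limma adjusted p = 0.0280). Mccc1 (chr3:35956292-36000694) had 10.08, 10.48 and 10.66 in metformin kidneys, against 11.09, 10.78 and 11.20 in saline kidneys. Metformin replicate 3 came within 0.12 of saline replicate 2, and the change of -0.62 ± 0.18 did not pass (limma adjusted p = 0.0544). In the fit that blocked on replicate Mccc1 was called (limma adjusted p = 0.0459). The call of Ivd ended without saline replicate 1 (0.0712) or saline replicate 3 (0.0515). That of Mccc2 was kept without saline replicate 2 alone (0.0137), with 0.0558 to 0.0867 in the other 5 fits.

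Among the genes of the isoleucine and valine arms, Aldh6a1 had the most negative change of the 10. It encodes methylmalonate-semialdehyde dehydrogenase, which makes propionyl-CoA at the end of valine breakdown and also acts in thymine breakdown (chr12:84430717-84451024). Aldh6a1 had 14.70, 15.46 and 15.66 in metformin kidneys, against 16.85, 16.55 and 16.96 in saline kidneys, so that 0.90 log2 units lay between the nearest arrays. The change was -1.51 ± 0.25 (SE; limma adjusted p = 0.0118; a 2.86-fold difference with a 95% interval of 1.92 to 4.25), and 0.281% of all genes tested had a more negative change. Its call ended without saline replicate 1 (adjusted p = 0.0538) and was kept in the other 5 fits that left out an array. Hibch, which removes coenzyme A from the valine intermediate before that step (chr1:52845038-52920986), had 8.80, 8.99 and 9.16 in metformin kidneys, against 9.84, 9.51 and 9.72 in saline kidneys. Its change was -0.71 ± 0.13 with a gap of 0.35 between the groups (limma adjusted p = 0.0168). Acadsb, the short/branched-chain acyl-CoA dehydrogenase of the isoleucine arm (chr7:131410601-131446211), had 11.03, 11.51 and 11.47 in metformin kidneys, against 12.04, 11.84 and 12.20 in saline kidneys. The change was -0.69 ± 0.16 with a gap of 0.33 (limma adjusted p = 0.0285). The call of Hibch ended when metformin replicate 1 (0.0531) or 2 (0.0556) or saline replicate 1 (0.0688) was dropped. The call of Acadsb was kept without saline replicate 2 alone (0.0242), with 0.0520 to 0.0973 in the other 5 fits.

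Propionyl-CoA, the shared product of the valine and isoleucine arms, is carboxylated by an enzyme whose beta chain is Pccb (chr9:100982032-101034940). Pccb had 12.13, 12.88 and 12.73 in metformin kidneys, against 13.76, 13.37 and 13.69 in saline kidneys. The nearest arrays, both replicate 2, were 0.48 apart, and the change was -1.02 ± 0.21 (limma adjusted p = 0.0208). The call ended when saline replicate 1 (0.0832) or 3 (an adjusted p just above the threshold) was dropped.

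**Figure D2:**
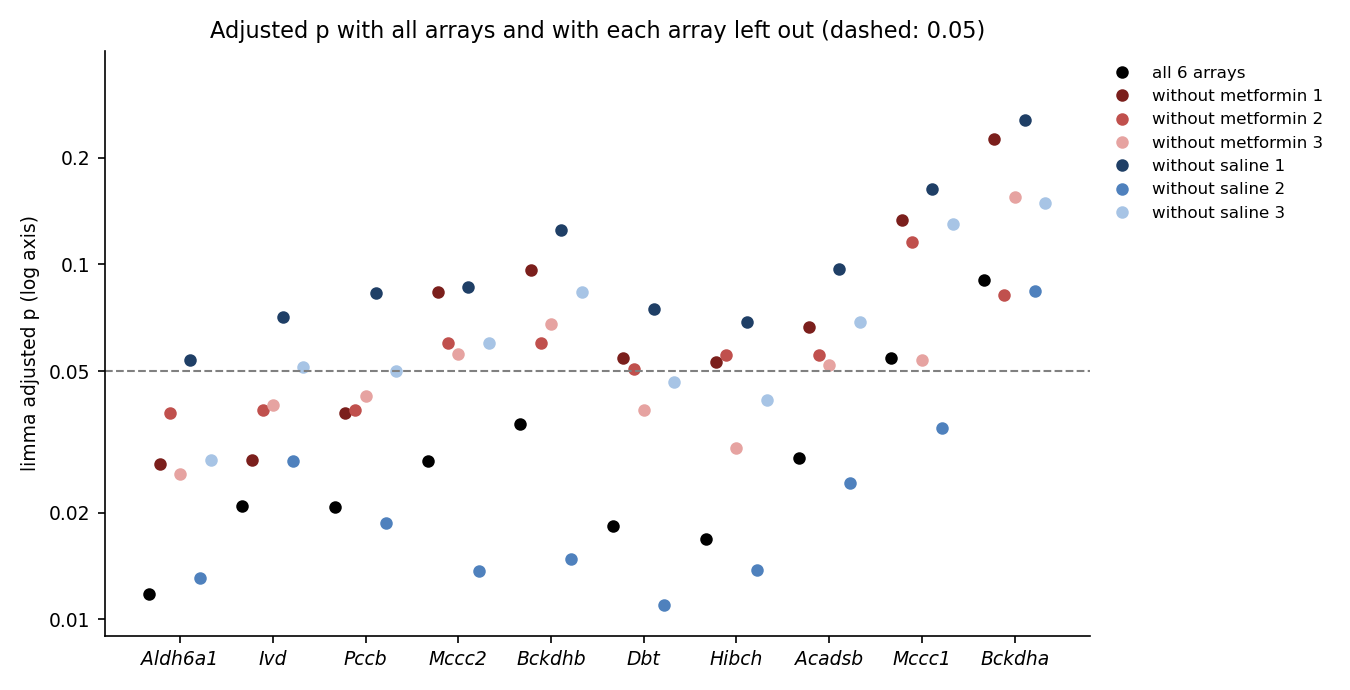
Adjusted p of the limma fit (log axis) for the 10 genes, in order of their change, with all 6 arrays (black) and with each array left out. All 10 points of the fit without saline replicate 1 lie above the dashed line at 0.05, and among those without saline replicate 2 only Bckdha does.

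The arrays kept much the same order across the 10 genes. Metformin replicate 1 had the lowest metformin value in 10 of 10 genes, whereas it was the lowest metformin array in 27.7% of all genes tested. Saline replicate 2 had the lowest saline value in 9 of 10, against 37.9% of all genes, and the exception was Ivd, in which saline replicates 1 and 2 were nearly equal. The mean deviation of the 10 genes from their own means over the 6 arrays was -0.80, -0.25 and -0.27 on metformin arrays 1 to 3, against 0.57, 0.20 and 0.55 on saline arrays 1 to 3. Dbt and Bckdhb followed that mean most closely, with root mean square distances of 0.06 and 0.08 log2 units over the 6 arrays, and Aldh6a1 and Bckdha least, at 0.34 and 0.25.

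The chains of one enzyme were set against each other within each array. The difference Bckdhb minus Bckdha was 0.45, 0.58 and 0.61 in metformin kidneys, against 1.02, 0.73 and 1.21 in saline kidneys (shift -0.44). For the methylcrotonoyl-CoA carboxylase the difference Mccc2 minus Mccc1 was 0.80, 0.94 and 0.68 in metformin kidneys, against 1.51, 1.03 and 1.01 in saline kidneys. For the propionyl-CoA carboxylase the difference Pccb minus Pcca was 0.14, 0.53 and 0.27 in metformin kidneys, against 0.78, 0.63 and 0.54 in saline kidneys. The shifts, metformin minus saline, were -0.37 for Mccc2 minus Mccc1 and -0.34 for Pccb minus Pcca. For Dbt minus Dld the shift was -0.15. The nearest metformin and saline arrays were 0.01 log2 units apart for the propionyl-CoA carboxylase and for Dbt and Dld. In all 4 pairs every metformin difference lay under every saline difference. That the 4 shifts are all below 0 follows from placing the gene with the more negative change first. How often other pairs of genes separate the groups in this way was not counted. Each exact two-sided permutation test gave p = 0.1, the smallest that 3 against 3 arrays allow, and 0.1 after adjustment over the 4 pairs. No outcome of that test could have passed the threshold used here, so it cannot decide whether the chains changed unequally. A difference between probes on one array depends on how each probe set responds, so its size is not a ratio of transcripts.

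Another 27 measured genes of the pathway were taken from a list. In the metformin kidneys 18 of the 27 fell, none rose (limma; 0 at an unadjusted p under 0.05 in that direction) and 9 did not pass, with a median change of -0.67, beside 9.08% of all genes called lower. Dropping metformin replicate 1, 2 or 3 gave 11, 8 and 14 calls, and dropping saline replicate 1, 2 or 3 gave 3, 22 and 8. In 2 of the 27, Mmab and Btd, the call was kept in each of the 6 fits.

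At the entry to the pathway, Slc25a44, the mitochondrial carrier for branched-chain amino acids, had 8.03, 8.63 and 8.57 in metformin kidneys, against 9.61, 9.67 and 9.20 in saline kidneys (change -1.08 ± 0.19; limma adjusted p = 0.0154, and 0.0676 without saline replicate 1). The cytosolic transaminase Bcat1 had -0.67 (0.0289), while the mitochondrial transaminase Bcat2 had -0.39 (0.109). Of the other dehydrogenase genes, the shared lipoamide dehydrogenase Dld had -0.68 (0.0458). The kinase that inactivates the complex, Bckdk, had 9.46, 9.92 and 9.77 in metformin kidneys, against 10.42, 10.32 and 10.22 in saline kidneys (-0.60 ± 0.14; 0.0279). Its opposing phosphatase Ppm1k had -0.38 ± 0.11 (0.0537). The groups did not overlap in either gene, and the difference between their changes was not tested. Lipt1 and Lias, which supply the lipoate arm, had -0.58 (0.0162) and -0.53 (0.0466, and 0.0555 in the fit that blocked on replicate). Of the 6 fits that each dropped 1 array, Slc25a44 kept its call in 5, all but that without saline replicate 1. Bcat1 kept its call in 2, the fits without saline replicate 1 (0.0443) and saline replicate 2 (0.0498).

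Downstream, the isobutyryl-CoA dehydrogenase Acad8 of the valine arm had 9.07, 9.62 and 9.48 in metformin kidneys, against 10.29, 10.23 and 10.44 in saline kidneys (-0.93 ± 0.15; limma adjusted p = 0.0122, and 0.0510 without saline replicate 1). The hydratase Echs1 (-0.75), the dehydrogenase Hsd17b10 of the isoleucine arm (-0.70) and Hibadh, which follows Hibch on the valine arm (-0.84), also fell. So did Abat (-1.15) and Agxt2 (-0.997), aminotransferases that act on valine-derived and thymine-derived beta-amino acids, and the mitochondrial thiolase Acat1 (-0.89). The leucine enzyme Auh had -0.56 (adjusted p = 0.0518) and the ketone-body enzyme Oxct1 -0.52 (0.0768). Among the genes that handle propionyl-CoA, the carboxylase alpha chain Pcca (-0.68) and the cobalamin-dependent mutase Mmut (-0.95) fell, and the epimerase Mcee had -0.56 (0.0668). None of the genes in this paragraph was called when saline replicate 1 was dropped.

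Of 6 genes for the cobalamin and biotin cofactors 3 fell. Mmab, which makes the adenosyl form of cobalamin used by the mutase, had 6.88, 7.09 and 7.10 in metformin kidneys, against 7.81, 7.98 and 8.001 in saline kidneys (-0.91 ± 0.11; limma adjusted p = 0.00735). Btd, biotinidase, which recycles biotin, had 7.43, 7.62 and 7.54 in metformin kidneys, against 8.40, 8.22 and 8.45 in saline kidneys (-0.82 ± 0.10; 0.00735). The spread within each group was small in both genes, and the gaps were 0.72 and 0.60. The cobalamin-processing gene Mmachc had -0.59 (0.0129), while Mmaa had -0.29 (adjusted p = 0.233) and Mmadhc 0.11 (0.454). Hlcs, which attaches biotin to the carboxylases, had 0.03 (0.899), and its sign turned with median-centred arrays and with quantile normalization. Klf15, a transcription factor known in mice to control branched-chain amino acid breakdown, had 8.44, 8.85 and 8.64 in metformin kidneys, against 8.81, 8.75 and 8.71 in saline kidneys. The Klf15 groups overlapped (-0.11 ± 0.12; adjusted p = 0.572).

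**Figure D3:**
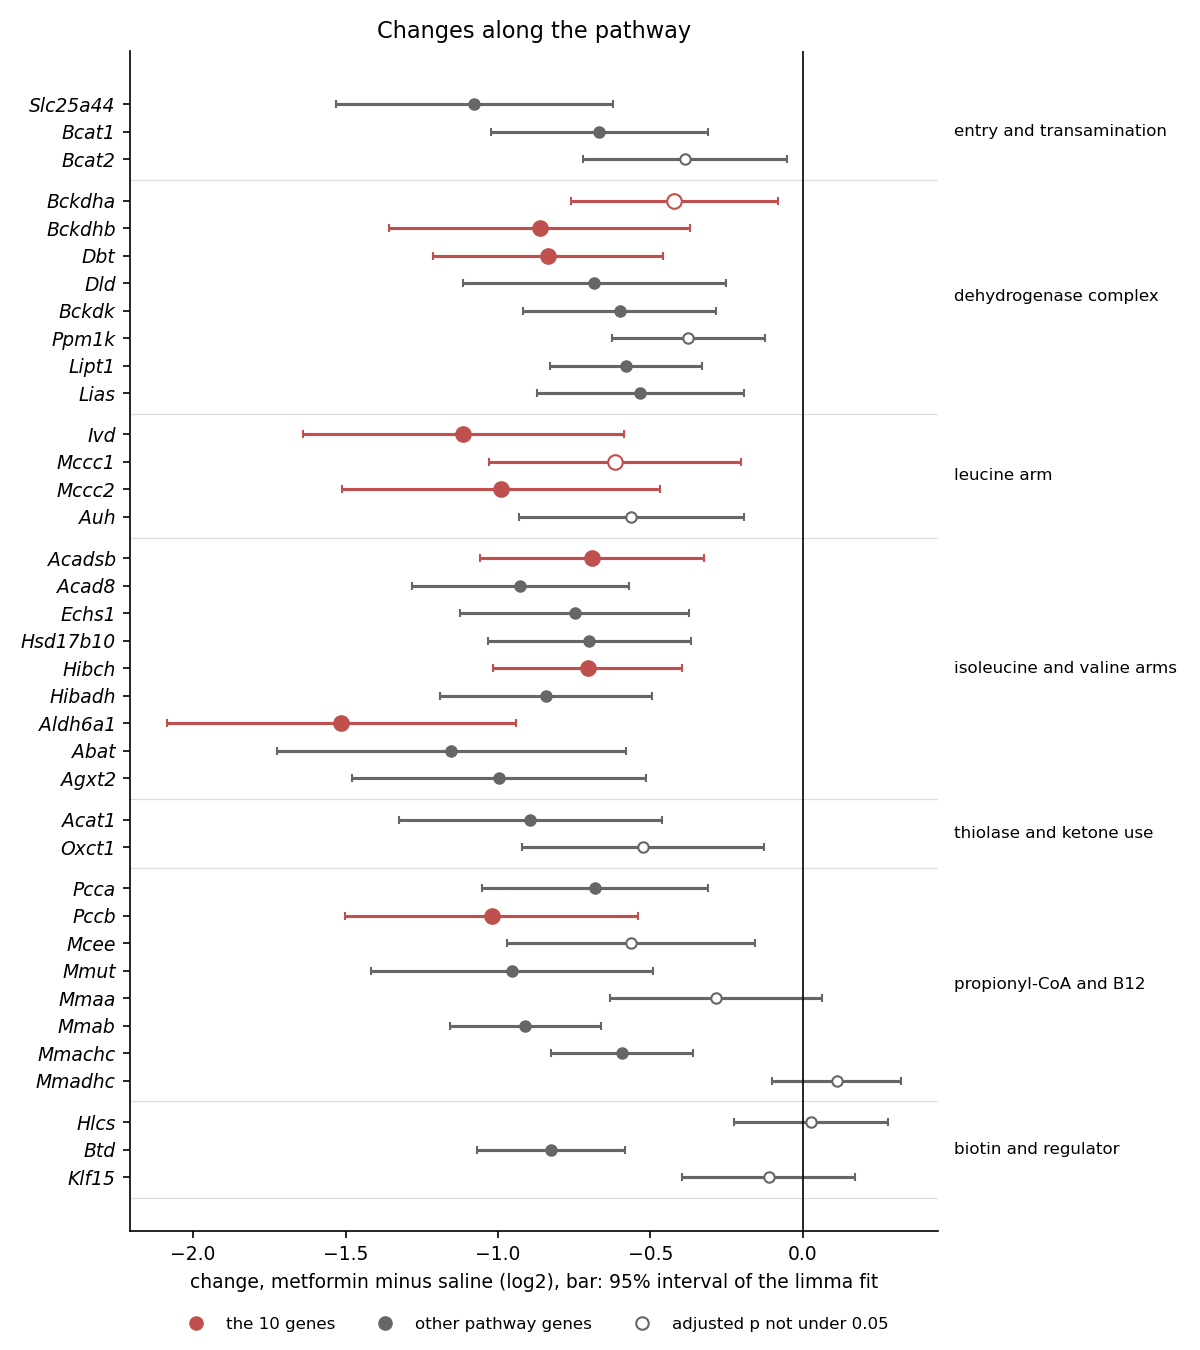
Change (metformin minus saline, log2) with the 95% interval of the limma fit for the 10 genes (red) and the 27 other pathway genes (grey), ordered by step. Open symbols did not pass the adjusted threshold, and Mmadhc and Hlcs are the only points above 0.

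Families that share an enzyme mechanism with the 10 genes, and in part hold them, were also followed, beside 9.08% of all genes called lower. Of 12 acyl-CoA dehydrogenases, which include Ivd, Acadsb and Acad8, 8 fell and none rose (median -0.75). Acad11 (-1.21), Acad12 (-0.95), Gcdh (-0.92), Acad10 (-0.79) and Acad9 (-0.71), which are not on the pathway list, fell as well. The 4 that were not called were Acads (-0.19), Acadm (-0.62), Acadl (-0.17) and Acadvl (-0.52), and no difference between them and the called members was tested. The limma adjusted p of these 4 ran between 0.164 and 0.384. Of 7 biotin-dependent carboxylase genes 4 fell: Pccb, Mccc2, Pcca and pyruvate carboxylase Pcx (-0.77; adjusted p = 0.0317), and the fatty acid synthesis enzymes Acaca (-0.48) and Acacb (-0.11) did not pass. Among 12 genes of the 2-oxoacid dehydrogenase complexes 7 fell (median -0.58), among them Pdha1 (-0.81) and Pdhb (-0.87) of the pyruvate complex. Bckdha and Dhtkd1 (-0.63, limma adjusted p = 0.0536) did not pass. Nor did Dlst (-0.39, limma adjusted p = 0.0767), Ogdh (-0.23) and Ogdhl (-0.19) of the 2-oxoglutarate complex. Of 11 plasma membrane transporters of neutral and branched-chain amino acids 6 fell (median -0.63), led in p by the basolateral exchanger Slc7a8 (-0.78), and the leucine exchanger Slc7a5 had 0.12 (adjusted p = 0.767). No gene of the last 3 families was called higher. When saline replicate 1 was dropped, Acad11 (limma adjusted p = 0.0489) and Pdha1 (0.0384) were still called. Acad12 (0.0700), Acad10 (0.0723), Pcx (0.0922), Pdhb (0.0531) and Slc7a8 (0.0628) were not, and Gcdh and Acad9 were not followed in that fit.

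By root mean square distance over the 6 arrays, the 5 genes outside all lists whose deviations lay nearest to the mean of the 10 were Aldh7a1, Uqcrfs1, Slc47a1, Qdpr and Fcgrt. Aldh7a1, a dehydrogenase of lysine breakdown, was the nearest at 0.03 log2 units, with 11.19, 11.79 and 11.79 in metformin kidneys, against 12.54, 12.20 and 12.57 in saline kidneys. The distances of the other 4 were 0.04 to 0.06. Slc47a1, which exports metformin into the urine, had 13.53, 14.10 and 14.11 in metformin kidneys, against 14.81, 14.55 and 14.90 in saline kidneys. That the 5 were lower in metformin kidneys follows from how they were chosen, and none was called when saline replicate 1 was dropped (limma adjusted p = 0.0726 to 0.101).

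Marker lists of cell types were read on the same arrays, beside 9.08% of all genes called lower and 6.71% called higher. Of 19 proximal tubule markers 5 fell, 14 did not pass and all 19 changes were below 0 (median -0.75). The mean level of that list was 13.57, 14.03 and 14.20 in metformin kidneys, against 14.55, 14.40 and 14.76 in saline kidneys, with metformin replicate 1 and saline replicate 2 the lowest of their groups, as for the 10 genes. On each array, the mean deviation of the 10 genes minus that of the markers was -0.11, -0.03 and -0.22 in metformin kidneys, against 0.27, 0.05 and 0.04 in saline kidneys. These differences did not overlap between the groups, with 0.07 log2 units between the nearest arrays, and the 10 genes were chosen with earlier results known. The marker mean holds genes at both ends of the scale. Slco1a1 averaged 4.25 in metformin and 4.44 in saline kidneys, and Kap 19.28 and 19.50. Of 14 genes chosen to follow mitochondrial mass 4 fell (median -0.36), with citrate synthase Cs at -0.71 (limma adjusted p = 0.00948). Its list averaged 11.31, 11.49 and 11.44 in metformin kidneys, against 11.88, 11.65 and 11.81 in saline kidneys. The part of tubule and mitochondrial content in the changes of the 10 genes was not tested.

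Of 11 adipocyte markers 1 fell, Adipoq (-1.32), a share near the 9.08% of all genes called lower, and all 11 changes were below 0 (median -1.32). The list averaged 6.29, 6.45 and 6.49 in metformin kidneys, against 7.90, 8.47 and 6.86 in saline kidneys. Saline replicate 2, the array with the highest adipocyte level, had the lowest saline value in 9 of the 10 breakdown genes. Whether adipocyte level and the breakdown genes are related over the saline arrays was not tested. Saline replicate 1, the next highest in adipocyte level, had the highest saline value in 6 of the 10, and saline replicate 3, the lowest, in 4. Without saline replicate 2 the median change of the 10 was -1.02, against -0.85 with all arrays, and 9 of the 10 were called. Of the macrophage markers 1 of 10 and of the fibroblast markers 1 of 9 were called higher, beside 6.71% of all genes, namely Lyz2 (1.99) and Col1a1 (1.65, adjusted p = 0.0517 with median-centred arrays), with list medians of 0.62 and 0.69. All 10 macrophage changes were above 0, and 2 of the 9 fibroblast changes were below 0. Macrophage markers averaged 9.49, 9.31 and 8.98 in metformin kidneys, against 8.38, 9.24 and 7.92 in saline kidneys, and fibroblast markers 10.45, 10.37 and 10.05 in metformin kidneys, against 9.72, 10.40 and 8.95 in saline kidneys. Saline replicate 2 reached the metformin range in both of these lists. The calls of Adipoq, Lyz2 and Col1a1 also ended when saline replicate 1 was dropped (limma adjusted p = 0.145, 0.119 and 0.139). The part of adipocyte, macrophage and fibroblast content in the changes of the 10 genes was not tested.

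**Figure D4:**
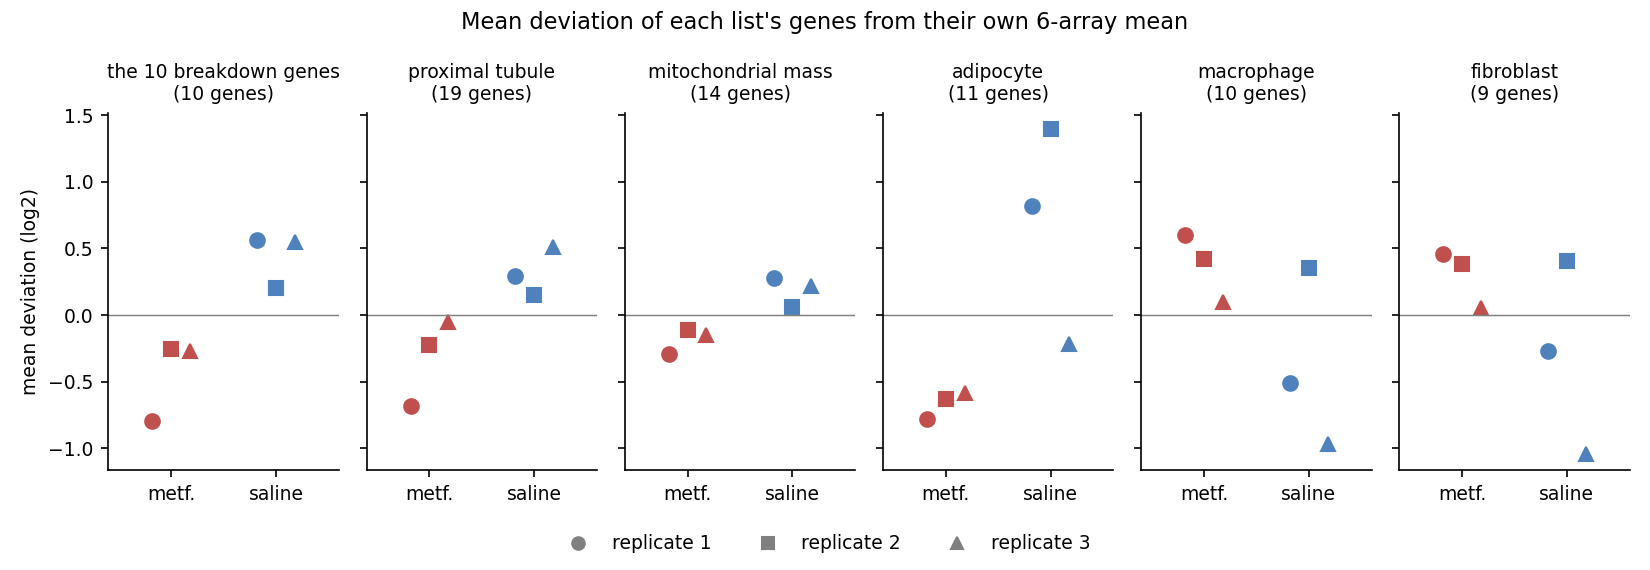
Mean deviation (log2) of each list's genes from their own means over the 6 arrays, metformin (red) left of saline (blue), replicate numbers as symbols. The 10 breakdown genes, proximal tubule markers, mitochondrial mass genes and adipocyte markers separate the groups, the adipocyte markers with a wide spread over the saline arrays, and macrophage and fibroblast markers overlap.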

How the data were processed

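TRIzol extracts of frozen kidneys were amplified and biotin-labelled (GeneChip WT PLUS), per the labels' protocols. The authors' deposited log2 values, 1 per transcript cluster on each array, came from RMA and, per the submitters' processing notes, Transcriptome Analysis Console 4.0. Their probe definition is not stated there, and values above those a 16-bit scanner records leave the scale unexplained. The number of arrays limits the precision.

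Clusters with 1 gene symbol in the platform annotation (30604 of 65956; 2146 have several and 33206 none) were named, with symbols updated through RefSeq (GRCm38.p6). After dropping the 33.3% of clusters with the lowest mean (at or under 4.03), the highest-mean cluster stood for each gene. All 22086 genes entered 1 two-sided limma 3.58.1 fit (R 4.3.3; lmFit, eBayes), metformin minus saline, with Benjamini-Hochberg adjustment over all of them and a threshold of 0.05; intervals are at 95%.

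The 10 members and all lists were chosen with earlier results of these data known. The naming rule took the members, the pathway list (those past the threshold, and others where a role is described), up to 4 called genes by smallest p from each further list, and the 5 nearest profiles. Acads, Acadm, Acadl, Acadvl, Acad9, Gcdh, Acaca, Acacb, Dlst, Dhtkd1, Ogdh, Ogdhl and Slc7a5 are named besides, picked with their values in view.

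Deviations of same-numbered arrays had correlations of 0.118, 0.145 and 0.541 for numbers 1, 2 and 3, though metformin 1 and saline 2 reached 0.299. The labels do not say what a number marks, so the main fit used no pairing and a replicate block was run as an alternative. Alternatives were a replicate block, each array left out, median-centred or quantile-normalized values, other low-value filters, a mean of clusters, every cluster tested, trend with robust, and array weights.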

Additional observations from a re-analysis of the deposited data

How the results depend on the processing

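Over the 71 genes of the naming rule and 15 alternatives, 854 of 1065 comparisons kept direction and side of the threshold. Of the rest, 186 lost the call, 21 gained one and 4 turned sign. All 4 were of the change of Hlcs, never called, with 0.0259 as reported, -0.0371 to 0.0893 when 1 array was left out (below 0 when that was metformin 1 or saline 3), -0.0645 with median-centred arrays and -0.187 with quantile normalization. Leaving out 1 array gave 0 to 9 calls among the 10 breakdown genes (8 with all arrays), 3 to 22 among the 27 other pathway genes (18) and 842 to 3965 among all genes (3489). These fits have fewer samples; without saline replicate 1 no breakdown gene was called. With all clusters past the filter in the adjustment, 7774 of 43970 clusters were called. Of the 22086 clusters that stood for genes, 1904 were called lower and 1420 higher in that setting. The replicate block changed the calls of Bckdhb, Mccc1, Lias (adjusted p = 0.0555) and Cldn10 (0.0542), and no other call of the 71 genes. The other alternatives called 8 or 9 of the 10. Beside these, the share of all genes called lower ran from 6.1% with no filter on low values to 17.2% with quantile normalization. Those of them with 9 calls had shares from 11% with array weights to 17.2%. Scaling moved the share of higher genes among those changed, which was 42.5% in the values as reported, 25.2% with median-centred arrays and 20.7% with quantile normalization, and the median change of all genes to -0.07 and -0.10. No breakdown gene or other pathway gene was called higher under any of the 15 alternatives.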

Other observations

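Markers of other nephron segments were lower in part. Of 10 loop and distal tubule markers 2 fell, the potassium channel Kcnj1 (-0.74) and the claudin Cldn10 (-0.82), and the median was -0.34. Of 10 collecting duct markers 5 fell, among them the proton pump subunit Atp6v0d2 (-0.94), the water channel Aqp3 (-0.73), the vasopressin receptor Avpr2 (-0.64) and the anion exchanger Slc4a1 (-0.86), with a median of -0.58. Of 9 podocyte and endothelial markers 1 fell, the angiopoietin receptor Tek (-0.45), with a median of -0.21. The share of all genes called lower was 9.08%. Without saline replicate 1 the limma adjusted p of Cldn10, Aqp3, Avpr2, Slc4a1 and Tek ran between 0.0821 and 0.127, and those of Kcnj1 and Atp6v0d2 were 0.0293 and 0.0450.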
